A study of Mus musculus with 6 samples.

Results

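Genes of motile cilia and the axoneme were examined in RNA sequencing of mouse hippocampus. The members were chosen by symbol: names that start with Dnah, Dnai, Dnaaf, Cfap, Rsph, Tekt, Spag, Spef, Drc, Ift or Bbs followed by a digit, with Hydin, Ak7, Ccdc39, Ccdc40 and Foxj1. This gave 58 of the 3733 genes in the deposited table. The study compared 3 groups of 2 libraries each, made from total RNA: Control, PIA (short for postnatal immune activation, written as LPS in the design text) and PIA+IL-27 (LPS with recombinant IL-27, a cytokine). LPS is bacterial lipopolysaccharide. The sources used here give no dose, timing, strain, sex or age, and the labels name no animal. The p-values therefore measure only the spread between these libraries, and the labels do not say whether it is technical. The 2 PIA+IL-27 libraries held 59.0 and 0.12 TPM of Y-linked genes, so these 2 were not repeats of 1 RNA sample. The table is itself a selection: per the authors' deposited table, every listed gene differs at least 2-fold, up or down, with Q no higher than 0.05 in some group comparison. Of the 58 cilia genes, 47 are so listed as lower in PIA than in Control and 47 as higher in PIA+IL-27 than in PIA, per the authors' deposited table. Of all 3733 genes, 1284 are so listed as lower in PIA than in Control and 2293 as higher in PIA+IL-27 than in PIA. The directions given below are therefore partly set by that selection.

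Motile cilia beat through dynein arms that slide the microtubule doublets of the axoneme against each other. Radial spokes and a central apparatus steer the beat, and a nexin-dynein complex and a molecular ruler fix the spacing along the doublet. In the brain, motile cilia are carried by ependymal cells, which line the ventricles, and by cells of the choroid plexus, while neurons and astrocytes carry a primary cilium that does not beat. Foxj1 is the transcription factor of motile cilia, and RFX factors act on genes of both kinds of cilium. Intraflagellar transport builds both kinds. The symbol rule is wider than the motile axoneme: Spag9 encodes a scaffold of JNK signalling, and Cfap36 binds the small GTPase Arl3.

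The promoters of the members were searched for letters that RFX and forkhead factors bind. Matches were counted over the members together and not by the 2 orders over the libraries given below. RefSeq promoter windows (GRCm38.p6, 250 bases before to 50 after the transcript start) were found for 45 of the 58 genes. The RFX core GTTGCC, on either strand (GGCAAC on the other), stood in the windows of 15 of these 45 genes (33.3%), against 14.1% of the 27025 genes of the promoter table and 15.0% of the listed genes. The forkhead core GTAAACA, on either strand (TGTTTAC on the other), stood in 3 of 45 (6.67%), against 4.05% of all genes. A match is a description of the sequence and not a site shown to be bound. The 150 bases before the start are printed below for the 4 genes with at least 2 RFX cores in that stretch (Tekt1, Spag16, Cfap161 and Cfap44), for Hydin with 1, for Ak7 with a forkhead core, and for Ift74 with neither. Each is in lower case on the strand of the gene, with the searched cores in capitals.
Tekt1, chr11:72361883-72362032, minus strand: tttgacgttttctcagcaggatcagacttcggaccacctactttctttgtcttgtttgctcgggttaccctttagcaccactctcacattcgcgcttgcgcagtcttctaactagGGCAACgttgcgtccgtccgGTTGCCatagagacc
Spag16, chr1:69826820-69826969, plus strand: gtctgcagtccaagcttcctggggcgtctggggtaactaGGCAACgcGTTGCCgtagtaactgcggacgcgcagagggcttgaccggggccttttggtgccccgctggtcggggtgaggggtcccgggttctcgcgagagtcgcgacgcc
Cfap161, chr7:83794840-83794989, minus strand: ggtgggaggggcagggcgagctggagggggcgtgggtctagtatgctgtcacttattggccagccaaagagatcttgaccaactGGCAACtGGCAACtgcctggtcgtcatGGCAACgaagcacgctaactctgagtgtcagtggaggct
Cfap44, chr16:44394649-44394798, plus strand: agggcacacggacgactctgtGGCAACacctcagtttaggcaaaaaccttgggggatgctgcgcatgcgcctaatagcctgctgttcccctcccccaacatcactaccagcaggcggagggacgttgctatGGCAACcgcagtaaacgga
Hydin, chr8:110266827-110266976, plus strand: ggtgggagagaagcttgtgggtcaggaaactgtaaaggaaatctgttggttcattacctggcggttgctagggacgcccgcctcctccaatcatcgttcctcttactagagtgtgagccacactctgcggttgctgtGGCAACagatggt
Ak7, chr12:105705832-105705981, plus strand: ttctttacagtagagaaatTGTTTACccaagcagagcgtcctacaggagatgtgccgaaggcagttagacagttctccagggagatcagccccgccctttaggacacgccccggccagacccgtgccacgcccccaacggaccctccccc
Ift74, chr4:94614341-94614490, plus strand: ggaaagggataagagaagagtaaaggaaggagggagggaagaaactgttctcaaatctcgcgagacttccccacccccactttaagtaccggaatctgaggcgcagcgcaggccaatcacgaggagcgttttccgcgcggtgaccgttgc
In Cfap161 all 3 cores lie between 66 and 34 bases before the start.

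The libraries held about 14707859 to 15952738 reads each, as estimated from counts, FPKM and transcript lengths, of which 641672 to 1593441 fell in the listed genes. Several marker lists differed between libraries of the same group. Choroid plexus markers (15 of 15 in the table, with Kcne2, Tmem72 and Otx2 listed at 0 in 1 or 2 libraries) summed to 38.9 and 14268 TPM in Control, 2402 and 55.8 under PIA, and 54.0 and 178 under PIA+IL-27. Ttr made up most of the largest sums, with 13900.5 TPM in Control 2 and 2338 in PIA 1. Neocortical markers (4 of 8 listed, none at 0) summed to 60.4 and 46.6 TPM in Control, 52.2 and 89.4 under PIA, and 159 and 52.9 under PIA+IL-27. Several markers of CA pyramidal and dentate granule cells were low in PIA 2 and PIA+IL-27 1. CA pyramidal markers (Fibcd1 and Zbtb20, 2 of 6 listed) summed to 28.2 and 51.0 TPM in Control, to 37.2 and 11.1 under PIA, and to 6.02 and 32.7 under PIA+IL-27. Of the dentate granule cell markers (4 of 7 listed, none at 0), Prox1 stood at 7.64 and 19.9, 8.30 and 1.22, and 2.42 and 19.8 TPM in the same order, and Dsp and Lct were also lowest in these 2 libraries. The dentate sum of 12.4 and 35.9, 15.0 and 6.09, and 22.5 and 33.4 TPM does not show this, since Stxbp6 made up 19.5 of the 22.5 in PIA+IL-27 1. Of the hippocampal neuron markers (Neurod1 and Snap25, 2 of 6 listed), Neurod1 was also lowest in these 2 libraries and Snap25 was not. Their sum was mostly Snap25 and did not show the low Neurod1 of PIA+IL-27 1. It was 106 and 274 TPM in Control, 134 and 90.2 under PIA, and 312 and 300 under PIA+IL-27. Snap25, a gene of all neurons, was lowest in PIA 2 (85.9 TPM) and highest in PIA+IL-27 1 (299). Neurod1 ranged from 4.29 in PIA 2 to 49.9 in PIA+IL-27 2, with 13.2 in PIA+IL-27 1. The Y-linked genes Kdm5d, Ddx3y, Eif2s3y and Uty, read as a check of the libraries, summed to 0.06 and 0.22 TPM in Control, 20.1 and 24.4 under PIA, and 59.0 and 0.12 under PIA+IL-27.

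Most cilia genes had low levels. In mean TPM, which is per transcript length, 4 of the 58 genes stood at 10 or more, 29 between 1 and 10, and 25 under 1. Spag9 (41.9), Cfap36 (34.8), Rsph1 (24.4) and Foxj1 (15.5) were the highest. No cilia gene passed an adjusted p of 0.05 in any comparison (edgeR, 53 of the 58 genes tested). In PIA against Control, 0 of 53 passed, where 0.218% of all 3216 tested genes did. An unadjusted p under 0.05 (edgeR) was found in 10 of the 53, and in 202 of the 3216. In PIA+IL-27 against PIA, 0 of 53 passed, against 0.435% of all genes. Here 8 of the 53 had an unadjusted p under 0.05 (edgeR), as did 602 of the 3216. In PIA+IL-27 against Control, 0 of 53 passed, against 0.311%. None of the 53 had an unadjusted p under 0.05 (edgeR), where 92 of the 3216 did. DESeq2 and limma, run on the same genes, also called 0 cilia genes in each comparison. The 5 genes not tested for low counts were Dnaaf6b, Spag6, Tekt3, Rsph14 and Cfap53, with 19 to 30 reads over all libraries.

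**Figure D1:**
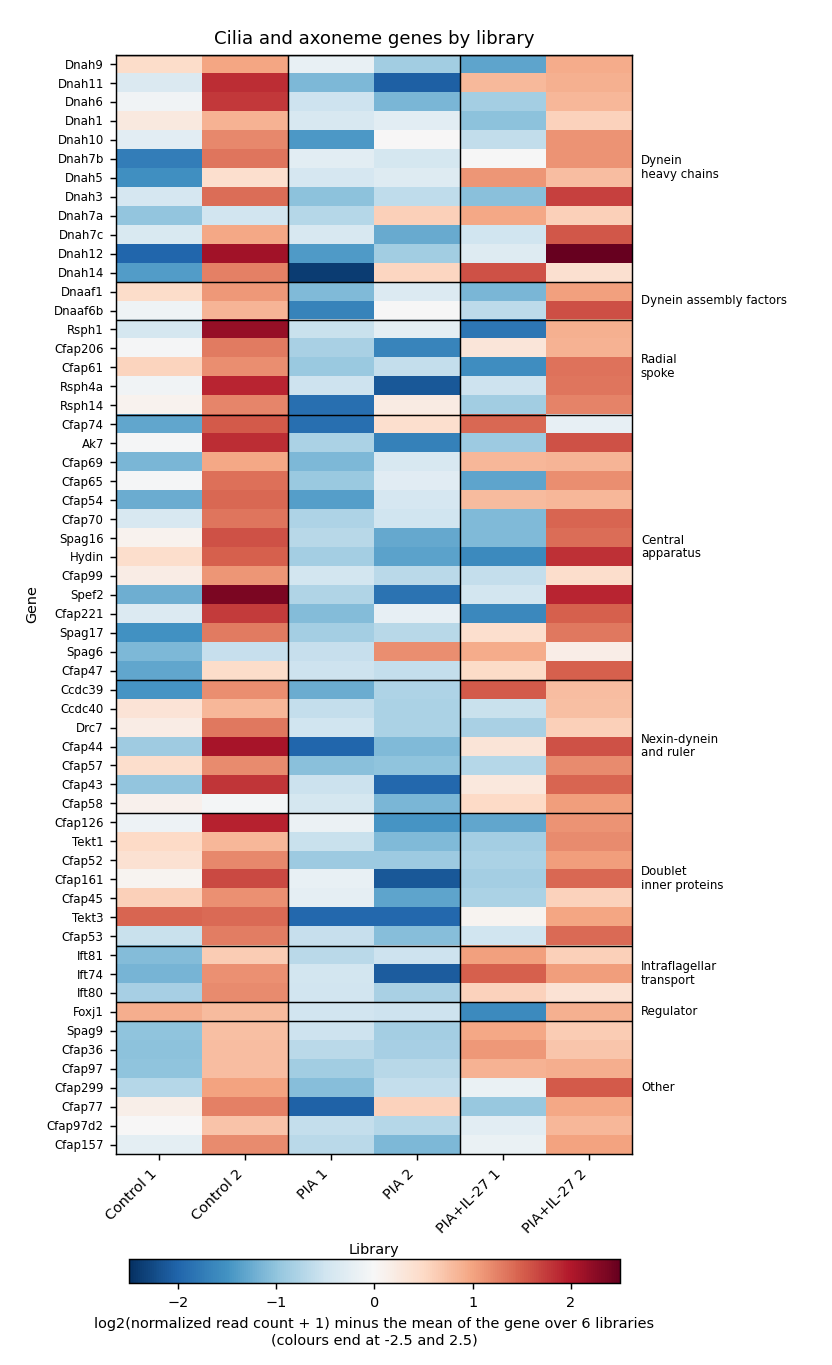
Heat map of the 58 genes (rows, by role group and then by mean TPM) in the 6 libraries (columns). Colour is log2(normalized read count + 1) minus the mean of the gene over the libraries, and the PIA columns are mostly blue while PIA+IL-27 1 is blue for genes such as Foxj1, Hydin and Tekt1 and red for Ift81, Ccdc39 and Spag9.

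Cilia genes lay below Control in the PIA libraries, by more than the median of the listed genes. The median log2 fold change of the 53 tested cilia genes was -1.49, with 52 of 53 below 0. Over all tested genes the median was -0.68, with 2322 of 3216 below 0. Without the filter on low counts the median of all 58 was -1.50. Scaling set its size: with TMM factors computed over the listed genes the cilia median was -0.82 (46 below 0 and 7 above) and that of all genes 0.00, and DESeq2 gave -0.83. limma on log2(TPM + 1) gave -0.72, beside -0.44 over all genes. Both PIA libraries had fewer normalized reads than both Control libraries in 31 of the 58 genes, where 16.5% of all listed genes did. They had more in 1 (Spag6, at 0.979 to 8.73 normalized reads), where 17.2% of all listed genes did. Control 2 weighed on the size: without it the median was -0.56, with all tested genes at 0.29; both PIA libraries were below Control 1 alone in 31 cilia genes and in 18.2% of all listed genes. Without Control 1 the median was -2.0, with all tested genes at -1.19. Both PIA libraries were then below Control 2 in 56 cilia genes and in 68.0% of all listed genes. In bulk tissue, fewer cells of a type and less RNA per cell cannot be told apart.

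PIA+IL-27 lay above PIA, about as far as the other listed genes. The median of the 53 tested genes was 1.48, with 53 of 53 above 0. Over all tested genes it was 1.17, with 2406 of 3216 above 0. Both PIA+IL-27 libraries exceeded both PIA libraries in 29 of 58 genes, a share below the 57.1% of all listed genes. The 2 PIA+IL-27 libraries differed: without PIA+IL-27 2 the median was 0.52, with 33 of 54 genes above 0 and all tested genes at 1.18. Without PIA+IL-27 1 it was 1.84, with all tested genes at 1.07. With TMM factors, which moved the median of all genes to -0.04, the cilia median was 0.25 and 36 of 53 genes were above 0, with 17 below.

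PIA+IL-27 against Control gave a cilia median of -0.14, with 33 of 53 genes below 0, beside 0.55 over all tested genes, with 860 of 3216 below 0. Both PIA+IL-27 libraries exceeded both Control libraries in 6 of 58 genes (23.0% of all listed genes) and lay below both in 2 (7.50%). The sign of the median rested on single libraries: it was 0.87 without Control 2 (all genes 1.36), 0.39 without PIA+IL-27 1 (all genes 0.39), and -1.33 without PIA+IL-27 2 (all genes 0.63). With TMM factors and with DESeq2 it was -0.60, beside -0.02 and 0.02 over all genes. The comparisons share their libraries and are not independent of each other.

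**Figure D2:**
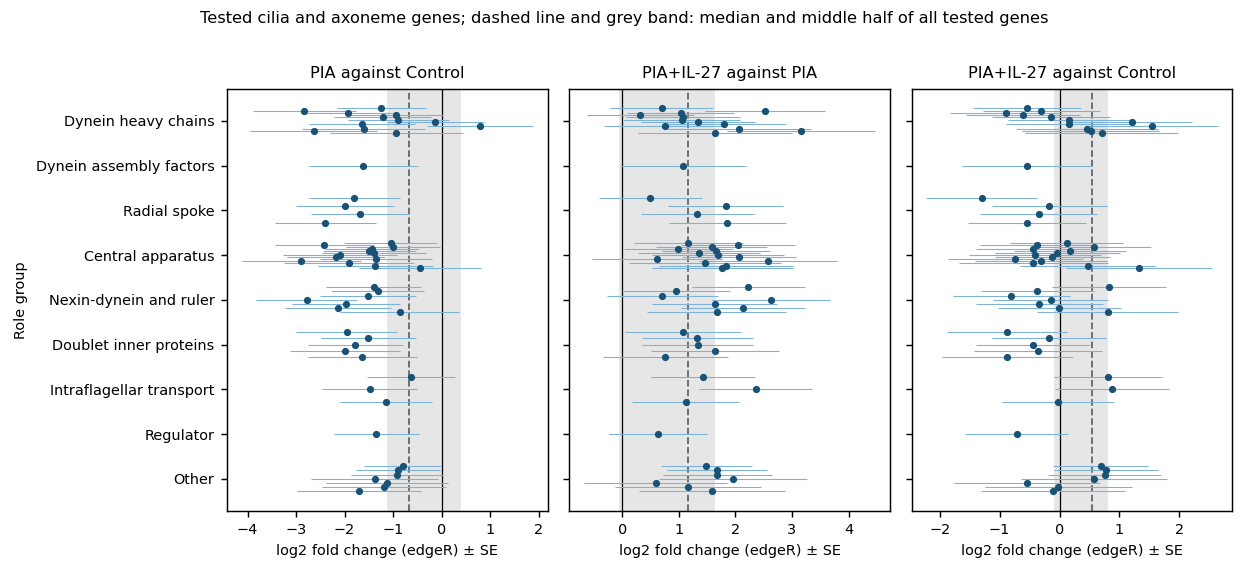
Log2 fold change (edgeR) with its SE for each of the 53 tested genes, by role group, in the 3 comparisons. The dashed line and grey band mark the median and the interquartile range of all 3216 tested genes; in PIA against Control 52 of the 53 points lie below 0 and around a median of -1.49.

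Over the 6 libraries the members followed 2 orders, which were noticed in the data and carry no test. In 25 of the 58 genes, PIA 1, PIA 2 and PIA+IL-27 1 all lay below the other 3 libraries, an order found in 6.86% of all listed genes. In another 22, Control 1, PIA 1 and PIA 2 all lay below the other 3, the order of 52.4% of all listed genes. The remaining 11 followed neither. Under TMM factors the former order held 26 cilia genes and 8.01% of all listed genes. The latter held 4 cilia genes and 16.8% of all listed genes, so it was smaller among all genes too. The 2 orders share low PIA libraries and differ in where Control 1 and PIA+IL-27 1 lie.

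Foxj1, the regulator, belonged to the former. It had 522 and 481 normalized reads in Control, 200 and 194 under PIA, and 91.8 and 518 under PIA+IL-27. The replicates were close in Control and in PIA, with no overlap between these groups. PIA+IL-27 1 lay below both groups, and PIA+IL-27 2 lay between the Control libraries. Its log2 fold change was -1.35 ± 0.877 in PIA against Control (SE, n = 2 per group; edgeR adjusted p = 0.617) and 0.63 ± 0.866 in PIA+IL-27 against PIA (adjusted p = 0.523).

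Dynein heavy chains are the motors of the arms. Of 12 listed, 11 were below 0 in PIA against Control, with a median of -1.23, 5 followed the order of Foxj1 and 4 the other. Dnah9, an outer arm chain, had 212 and 309 normalized reads in Control, 135 and 84.0 under PIA, and 61.5 and 295 under PIA+IL-27. Its groups did not overlap between Control and PIA, and PIA+IL-27 1 was the lowest of all libraries (PIA against Control -1.24 ± 0.916, edgeR adjusted p = 0.617). Dnah11, another outer arm chain, had 30.4 and 143 in Control, 17.3 and 8.73 under PIA, and 68.8 and 72.8 under PIA+IL-27, so both PIA libraries were below the other 4. Its log2 fold change of -2.83 ± 1.07 had an edgeR adjusted p of 0.483, the smallest of any cilia gene in that comparison, shared with Cfap44. Dnah6, an inner arm chain, had 90.1 and 325, 66.3 and 42.5, and 52.1 and 171 in the same order of groups. Dnah5, an outer arm chain, stood apart with 14.7 and 59.0 in Control, 32.7 and 34.9 under PIA, and 95.9 and 75.7 under PIA+IL-27. Its PIA libraries lay between the Control libraries, and both PIA+IL-27 libraries were the highest (1.22 ± 1.0 against Control, adjusted p = 0.835). Dnah12, an inner arm chain, had 0.979 and 32.4 normalized reads in Control, 1.92 and 3.27 under PIA, and 5.21 and 42.7 under PIA+IL-27, with a log2 fold change of 3.16 ± 1.32 in PIA+IL-27 against PIA (edgeR adjusted p = 0.257). Dnah7a, Dnah7b and Dnah7c are near-identical copies with read counts that are not whole, so their split is uncertain. Dnah7a, at 0.79 ± 1.09 in PIA against Control, was the only tested cilia gene above 0 there.

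Of the factors that assemble dynein arms, Dnaaf1 had 27.4 and 42.8 normalized reads in Control, 8.65 and 15.3 under PIA, and 8.34 and 40.8 under PIA+IL-27. This is the order of Foxj1, without overlap between Control and PIA (-1.62 ± 1.12, edgeR adjusted p = 0.617). Dnaaf6b reached at most 8.74 normalized reads.

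**Figure D3:**
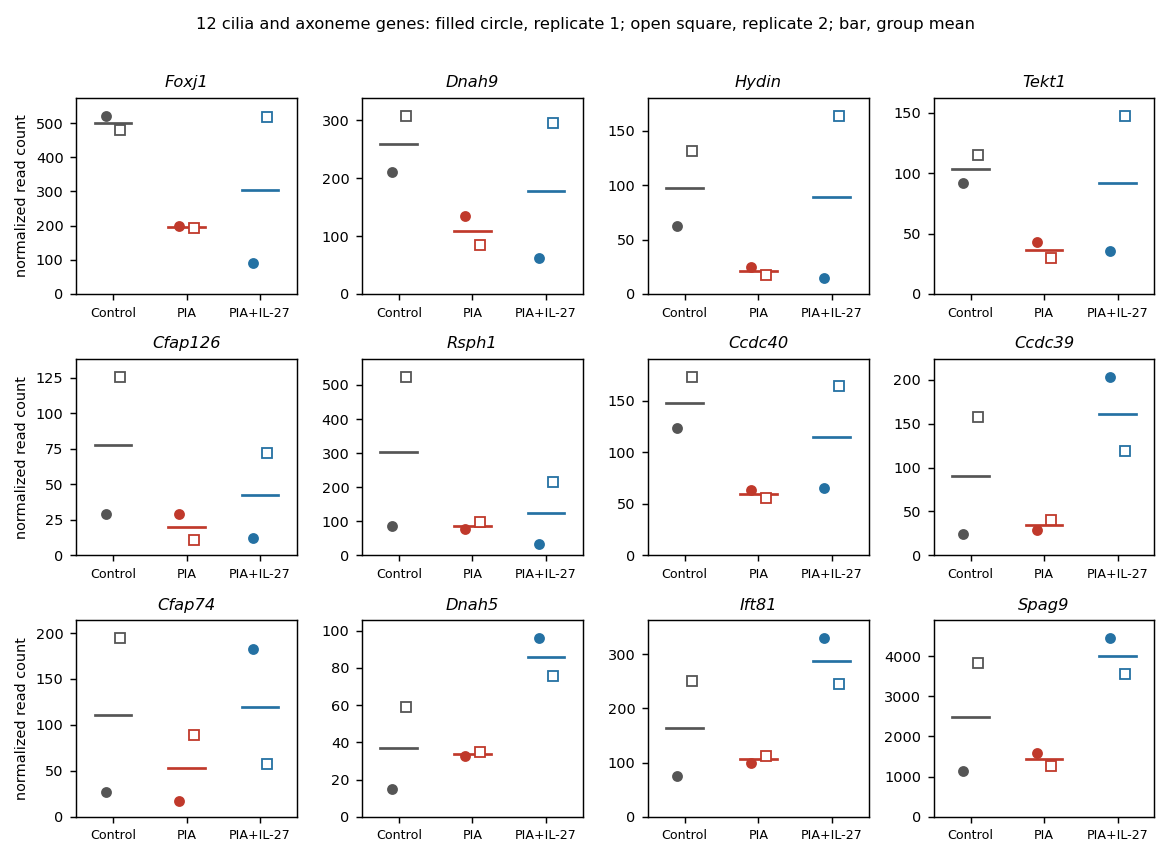
Normalized read counts (linear axis from 0) of 12 members in the 3 groups; filled circles are replicate 1, open squares replicate 2 and bars the group mean. Foxj1, Dnah9, Hydin, Tekt1, Cfap126 and Rsph1 are low in PIA+IL-27 1 (14.6 for Hydin, 91.8 for Foxj1), whereas Ccdc39, Dnah5, Ift81 and Spag9 are highest there.

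Radial spoke genes had a median of -1.90 in PIA against Control, with 4 of 4 tested below 0. Rsph1, a spoke head protein, had 85.2 and 524 normalized reads in Control, 77.8 and 97.1 under PIA, and 32.3 and 215 under PIA+IL-27. Control 1 lay between the PIA libraries, so the groups overlapped and the log2 fold change of -1.80 ± 0.935 (edgeR adjusted p = 0.617) rested on Control 2. Rsph4a, also of the spoke head, had 34.3 and 139 in Control, 25.0 and 7.64 under PIA, and 25.0 and 94.2 under PIA+IL-27. Cfap61, a protein of the spoke base, had 66.6 and 102, 23.1 and 29.5, and 14.6 and 117, and Cfap206, of the same region, had 49.0 and 124, 27.9 and 15.3, and 61.5 and 92.2. Both were lower in each PIA library than in each Control library, and they differed in PIA+IL-27 1, which was the lowest library for Cfap61 and above Control 1 for Cfap206.

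Central apparatus genes numbered 14, with 13 of 13 tested below 0 in PIA against Control (median -1.43); 6 followed the order of Foxj1 and 5 the other. Hydin, a large protein of a central pair projection, had 62.7 and 131 normalized reads in Control, 25.0 and 17.5 under PIA, and 14.6 and 164 under PIA+IL-27. Every Control value was above every PIA value, and the PIA+IL-27 libraries were the lowest and the highest of all 6 (PIA against Control -2.19 ± 1.01, edgeR adjusted p = 0.617). Ak7, an adenylate kinase, had 43.1 and 162 in Control, 25.0 and 13.1 under PIA, and 22.9 and 135 under PIA+IL-27 (-2.42 ± 1.02, edgeR adjusted p = 0.617). Cfap69 followed the other order, with 25.5 and 114, 25.9 and 43.6, and 103 and 105. Cfap74 followed neither, with 26.4 and 194 in Control, 17.3 and 89.5 under PIA, and 182 and 57.3 under PIA+IL-27: replicates differed within every group. Spef2 had the most negative fold change of all tested members in PIA against Control (-2.89 ± 1.23), on 3.92 and 57.1 normalized reads in Control and 5.77 and 2.18 in PIA, which overlap in range.

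The nexin-dynein and ruler genes divided between the 2 orders, 3 in each of 7. Ccdc39 and Ccdc40 encode the partners of the ruler. Ccdc40 had 123 and 173 normalized reads in Control, 63.4 and 55.6 under PIA, and 65.7 and 164 under PIA+IL-27. Ccdc39 had 24.5 and 157 in Control, 28.8 and 40.4 under PIA, and 203 and 119 under PIA+IL-27. The partners thus had opposite places for Control 1 and PIA+IL-27 1: Ccdc40 was 123 in Control 1 and 65.7 in PIA+IL-27 1, and Ccdc39 was 24.5 and 203. In PIA+IL-27 against PIA, Ccdc39 had a log2 fold change of 2.23 ± 0.992 (edgeR adjusted p = 0.257) and Ccdc40 of 0.95 ± 0.951 (adjusted p = 0.393). Drc7, of the nexin-dynein complex, had 58.8 and 130, 36.5 and 29.5, and 29.2 and 78.6, and Cfap44, a tether of inner arm dyneins, had 21.5 and 172, 9.61 and 18.5, and 51.1 and 124 (PIA against Control -2.78 ± 1.04, edgeR adjusted p = 0.483).

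Of the genes for proteins inside the doublet microtubule, 6 of 7 followed the order of Foxj1, and in 7 of 7 both PIA libraries were below both Control libraries. Tekt1, a tektin filament protein, had 92.1 and 115 normalized reads in Control, 43.2 and 29.5 under PIA, and 35.5 and 148 under PIA+IL-27 (PIA against Control -1.51 ± 0.977, edgeR adjusted p = 0.617). Cfap52 had 78.4 and 139, 31.7 and 31.6, and 34.4 and 125. Cfap126 had 29.4 and 126, 28.8 and 10.9, and 12.5 and 71.8, so Control 1 and PIA 1 were within 1 read of each other. Tekt3 had 9.79 and 9.52 in Control, no reads in either PIA library, and 3.13 and 6.80 in PIA+IL-27; with the PIA group set to a floor of 3 counts in all, it was at least 6.30-fold lower in PIA than in Control, on counts too few for the test.

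Intraflagellar transport genes did not follow Foxj1: 0 of 3 had its order and 3 of 3 the other. Ift81, which with Ift74 carries tubulin, had 75.4 and 251 normalized reads in Control, 99.9 and 112 under PIA, and 329 and 245 under PIA+IL-27. Its PIA libraries lay between the Control libraries, and its log2 fold change of -0.62 ± 0.907 (edgeR adjusted p = 0.655) in PIA against Control was near the median of all tested genes, -0.68. Ift74 had 25.5 and 130 in Control, 42.3 and 13.1 under PIA, and 165 and 121 under PIA+IL-27 (2.36 ± 1.0 in PIA+IL-27 against PIA, edgeR adjusted p = 0.257). Ift80 had 58.8 and 242, 75.9 and 60.01, and 158 and 137. Control 1 was the lowest library for Ift81 and Ift80.

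The 7 other members held genes of either order. Spag9 had 1129 and 3839 normalized reads in Control, 1589 and 1270 under PIA, and 4446 and 3552 under PIA+IL-27, and Cfap36 had 177 and 616, 226 and 203, and 772 and 586. Cfap97 had 49.0 and 169, 53.8 and 61.1, and 181 and 187. All of these had Control 1 as the lowest library and no overlap between PIA and PIA+IL-27 (Spag9 1.48 ± 0.803, Cfap36 1.67 ± 0.881 and Cfap97 1.68 ± 0.963; edgeR adjusted p = 0.265, 0.265 and 0.278).

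Lists of other ciliary genes showed the same division. Of 74 other axoneme and motility genes, 41 were in the table; 22 of 41 followed the order of Foxj1 and 12 the other, and in 25 each PIA library was under each Control library. Their median in PIA against Control was -1.66, with 37 of 37 tested genes below 0 and 0 passing (edgeR). Dynlrb2, a dynein light chain, had 25.5 and 69.5 normalized reads in Control, 15.4 and 8.73 under PIA, and 5.21 and 92.2 under PIA+IL-27. Meig1, which is needed for sperm formation, had 42.1 and 66.7, 16.3 and 17.5, and 8.34 and 66.0. Fam183b, a gene of multiciliated cells, had 17.6 and 47.6, 22.1 and 12.001, and 6.26 and 75.7, so that PIA 1 lay above Control 1. Of 67 genes of the primary cilium and transition zone, 14 were in the table, and 0 followed the order of Foxj1 while 14 of 14 followed the other, where 52.4% of all listed genes do. Their median was -0.77 in PIA against Control and 1.42 in PIA+IL-27 against PIA, and 0 of 14 passed in either (edgeR). Kif3a, the motor of anterograde intraflagellar transport, had 887 and 2609 in Control, 1342 and 950.3 under PIA, and 3327 and 2402 under PIA+IL-27. Bbip1, a BBSome subunit, had 271 and 634, 418 and 289, and 931 and 708, and Rpgr, of the transition zone, had 66.6 and 248.5, 95.1 and 90.6, and 285 and 169.9. In both, every PIA library lay between the Control libraries.

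Regulators of multiciliation divided 4 and 4 of the 8 listed (of 21), with 0 passing in any comparison (edgeR). Mcidas, a regulator of the multiciliated programme, had 24.5 and 13.3 normalized reads in Control, 3.84 and 2.18 under PIA, and 4.17 and 22.3 under PIA+IL-27. Myb, which acts early in this programme, had 38.2 and 43.8, 15.4 and 9.82, and 9.38 and 74.8. Cdc20b and Foxn4 shared this order. Rfx3, an RFX factor, had 214 and 725 in Control, 203 and 245 under PIA, and 817 and 655 under PIA+IL-27. Plk4, the kinase of centriole duplication, had 24.5 and 76.2, 36.5 and 39.3, and 112 and 90.3. Gmnc and Cep152 were in the order of Rfx3 and Plk4. Gmnc had 1.96 and 33.3, 3.84 and 2.18, and 9.38 and 8.74.

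**Figure D4:**
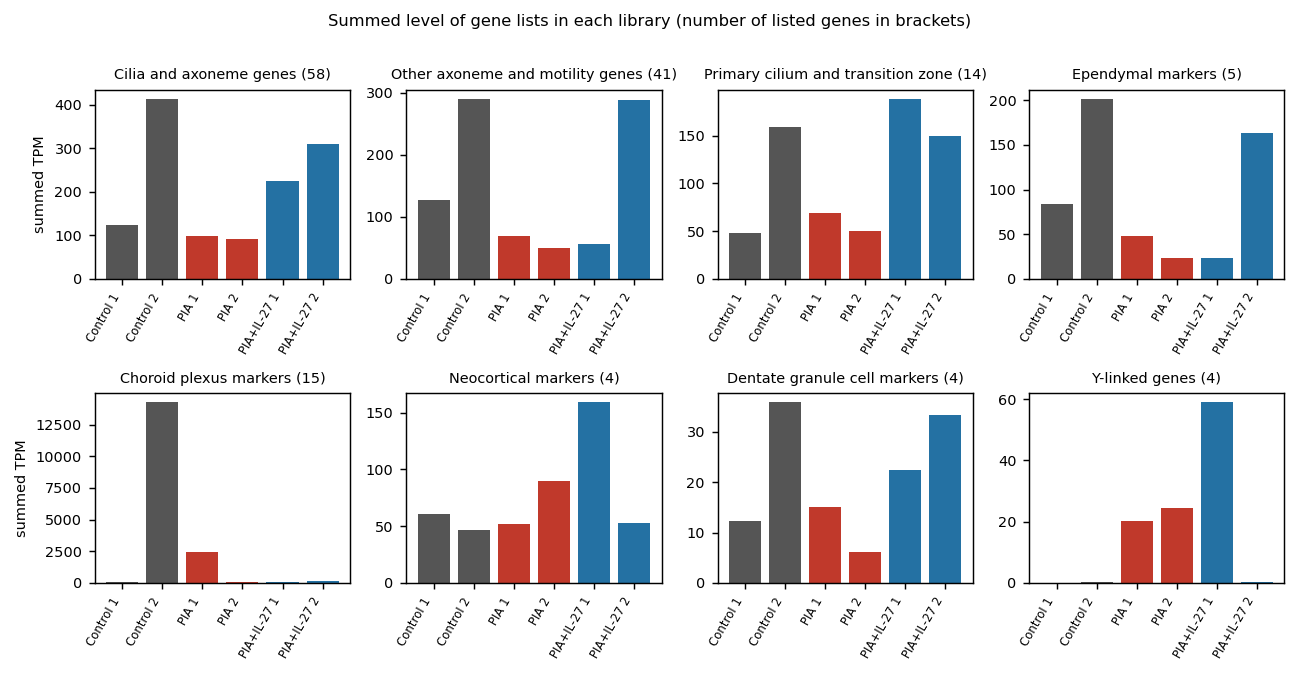
Summed TPM of 8 gene lists in each library (bars from 0, coloured by group, separate linear axes). Other axoneme genes and ependymal markers, which share Ccdc153, Tmem212 and Dynlrb2, are low in both PIA libraries and PIA+IL-27 1. Primary cilium genes are low in Control 1 and both PIA libraries, and Y-linked genes are near 0 in Control and PIA+IL-27 2.

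Markers of ependyma outside the cilia symbols shared the order of Foxj1. In 5 of 5 of them (Ccdc153, Tmem212, Dynlrb2, Mia and Hdc), both PIA libraries and PIA+IL-27 1 lay below the other 3, and they summed to 84.0 and 202 TPM in Control, 47.9 and 23.3 under PIA, and 23.4 and 163 under PIA+IL-27. Ccdc153, Tmem212 and Dynlrb2 are also among the other axoneme and motility genes counted above, so only Mia and Hdc are added here. Of the whole marker list 8 of 11 were in the table, none at 0. The Y-linked sum divided the libraries in the same way with the opposite sign, at 20.1 TPM or more in PIA 1, PIA 2 and PIA+IL-27 1 and at most 0.22 in the other 3. The neocortical sum was highest, and the CA pyramidal sum lowest, in PIA+IL-27 1 and PIA 2. With these 2 libraries left out together, 1 library remained in each of these groups, assumed to vary like Control. The median of the cilia genes was then -1.54 in PIA against Control, with all tested genes at -0.52, and 1.98 in PIA+IL-27 against PIA, with all at 0.90. Choroid plexus markers, whose sum was highest in Control 2 and PIA 1 and was mostly Ttr there, had 0 of 15 genes in the order of Foxj1. That order held 6.86% of all listed genes. A ratio of Control 2 to Control 1 over 2-fold was found in 15 of these 15. It was found in 42 of the 58 cilia genes and in 59.0% of all listed genes. Both Control libraries lay at or under 0.22 TPM in the Y-linked sum and both PIA libraries at 20.1 or more. In PIA against Control this difference and the treatment therefore cannot be told apart. The same held in PIA+IL-27 against PIA with PIA 2 and PIA+IL-27 1 left out. The Y-linked sum was then 20.1 TPM in PIA 1 and 0.12 in PIA+IL-27 2. The part of the tissue taken with each library, and of the Y-linked difference, in the cilia genes was not tested.

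GC content differed between the 2 orders. The longest coding transcripts of the 25 genes ordered like Foxj1 had a median GC content of 50.4%, and those of the 22 in the other order 44.4%, beside 44.8% over the listed genes. Foxj1 had the highest of the members at 61.4%. Across the 58 genes, all read from the same libraries, the log2 ratio of Control 2 to Control 1 had a Spearman rho of -0.55 with GC content, close to the -0.52 over all listed genes with a value. The ratio of PIA+IL-27 2 to PIA+IL-27 1 had a rho of 0.29 over the members and 0.01 over all listed genes. The members exceeded a 2-fold ratio of Control 2 to Control 1 in 42 of 58 genes (59.0% of all listed genes) and of PIA+IL-27 2 to PIA+IL-27 1 in 40 of 58 (14.7%). The part of GC content in these differences was not tested.

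**Figure D5:**
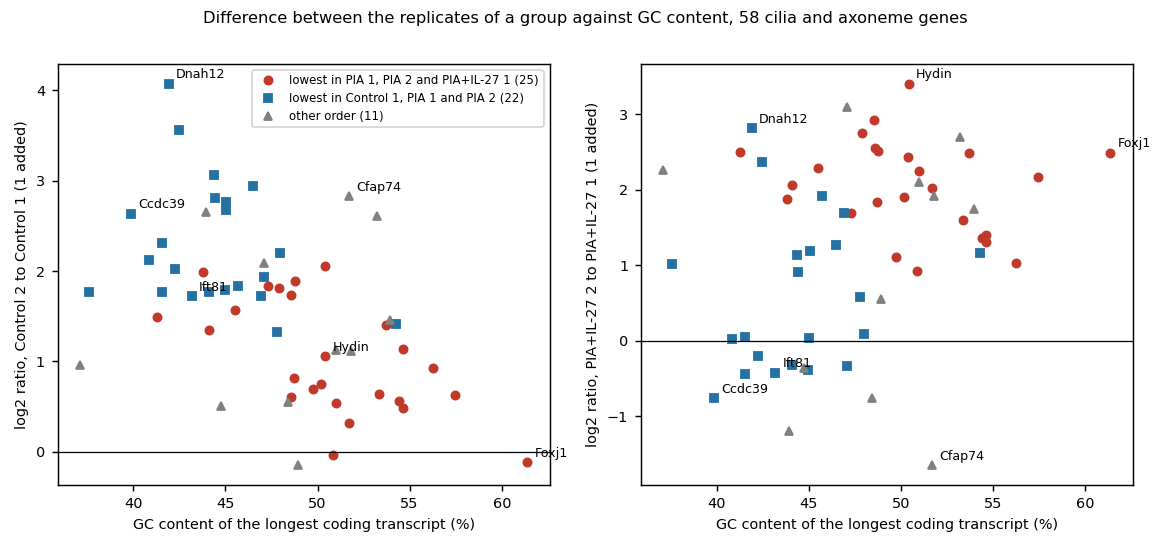
Log2 ratio between the replicates of Control (left) and of PIA+IL-27 (right), 1 added to each normalized count, against the GC content of the transcript, for the 58 genes; colours give the order over the libraries. The 25 genes ordered like Foxj1 have a median GC content of 50.4%, against 44.4% for the 22 of the other order; Ccdc39 and Ift81 lie at low GC content and below 0 there.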

How the data were processed

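RNA sequencing libraries of mouse hippocampus, 2 per group, were grouped by the labels and joined to the deposited table through the library names. The expected counts, normalized counts, TPM and FPKM were made by the authors, per the file headers; the sources used here name no aligner, counter, strand or build. The deposited normalized read count is a signal, the read count rounded up and divided by 1 factor per library (0.917 to 1.05). The authors' log2 fold changes and Q values (adjusted p-values) were used only to describe the selection. TPM were summed over lists, and FPKM served to estimate depth. After rounding, the expected counts went into edgeR 4.0.16 under R 4.3.3 (quasi-likelihood, filterByExpr, the authors' factors, all 6 libraries, Benjamini-Hochberg over 3216 genes, threshold 0.05); the common coefficient of variation was 0.597. The script was checked on simulated data. GC content came from GENCODE M21 transcripts. Alternatives were other factors, no filter, a replicate block, fewer libraries, DESeq2 1.42.0 and limma 3.58.1. Members, lists and the rule for named genes (5 fixed genes, the 3 highest in TPM per role group, the 3 smallest p per comparison, the 3 highest in TPM per list) were chosen with earlier results of these data known; genes outside the rule were named after their values were seen. Read counts were not whole in 7 members.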

Additional observations from a re-analysis of the deposited data

How the results depend on the processing

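No cilia gene was called under any setting but 1: with only the libraries of the comparison, 2 were called in PIA+IL-27 against PIA, Ccdc39 and Cfap36 (adjusted p = 0.0493 for both, edgeR). Replicate numbers are shared by the groups but nothing in the labels pairs them, and same-numbered libraries correlated at 0.15, 0.06 and -0.26 between groups; with the replicate block the medians were -1.28, 1.37 and -0.12 in the 3 comparisons, with 0 calls. In PIA+IL-27 against PIA the median of 1.48 was 0.25 with TMM factors, 0.32 with median-of-ratios factors and 0.28 with DESeq2; that of -1.49 in PIA against Control was -0.82, -0.83 and -0.83, and that of -0.14 in PIA+IL-27 against Control -0.60 under each. Leaving out each library in turn gave medians of -2.0 to -0.56 in PIA against Control, 0.52 to 1.84 in PIA+IL-27 against PIA and -1.33 to 0.87 in PIA+IL-27 against Control. The count of genes with both PIA libraries below both Control libraries was 31 to 56 with a library left out (18.2% to 68.0% of all listed genes), and that with both PIA+IL-27 libraries above both PIA libraries 32 to 54 (62.5% to 66.2%). Under TMM and median-of-ratios factors the latter was 6 and 8 (21.6% and 23.4% of all listed genes), and the genes lowest in Control 1, PIA 1 and PIA 2 numbered 4 and 5 (16.8% and 17.4%); the counts of orders over libraries and their alternatives were chosen after seeing the data. Of 1258 fold changes of named genes under the alternatives, 115 changed sign, none of them called. The cause was not tested. Of all genes, 7, 14 and 10 were called in the 3 comparisons by edgeR with the authors' factors; TMM factors gave 0 in each, DESeq2 2, 276 and 4, and the libraries of the comparison alone 9, 449 and 1. Reads limit the low members: 5 of 58 had 30 reads or fewer in all.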
